A study of Arabidopsis thaliana with 12 samples.

Results

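The class III peroxidases analysed here are 60 genes of *Arabidopsis thaliana*, taken by their gene identifiers from the 37336 gene identifiers in the count tables. They were chosen as members of the secreted peroxidase family, by a rule that used no measured value. All 60 are protein-coding in the reference annotation, on 5 chromosomes, and the product of 58 of them names a peroxidase. The other two, *RHS18* (AT5G22410) and *RHS19* (AT5G67400), carry the product name root hair specific. A further 13 family genes were kept apart as a comparison list.

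Class III peroxidases are heme enzymes that plants secrete into the cell wall and the vacuole. With hydrogen peroxide as the oxidant they couple monolignols into lignin and cross-link wall proteins such as extensins, which stiffens the wall, and in another reaction cycle they release reactive oxygen species, which can loosen it. In roots they are known for the lignin of the xylem and of the Casparian strip, the ring-like barrier in the endodermal wall, for root hair growth and for the oxidative burst in defence.

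Transcripts were counted in 4 groups of 3 libraries each, from untreated seedlings 7 days old grown on sucrose-containing agar medium. The *pi4kß1ß2* roots and *pi4kß1ß2* leaves came from a mutant with T-DNA insertions in both *PI4Kß1* (AT5G64070) and *PI4Kß2* (AT5G09350), which encode type III phosphatidylinositol 4-kinases, and the WT roots and WT leaves from the Col-0 accession. Each root library pooled the roots of many seedlings. The stage label of WT leaf replicate 3 holds dates and not a stage. The comparisons ask which peroxidase transcripts differ between *pi4kß1ß2* and WT in each organ, and where the family is expressed.

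The libraries held 38116716 to 46577151 gene counts. Values are given as normalized CPM, the counts of a gene relative to the scaled total of its library. They were scaled within the libraries of each comparison. *PI4Kß2* had 8.63, 9.0 and 7.99 CPM in *pi4kß1ß2* roots, against 17.5, 19.3 and 16.8 CPM in WT roots, and *PI4Kß1* had 56.8 to 58.3 CPM in *pi4kß1ß2* roots, against 85.5 to 94.2 CPM in WT roots. The transcripts of both kinase genes were thus lower but present in *pi4kß1ß2* roots. In leaves, *PI4Kß2* had 9.10, 5.25 and 5.56 CPM in the libraries labelled *pi4kß1ß2* 1, 2 and 3, against 9.88, 3.96 and 10.1 CPM in those labelled WT 1, 2 and 3. The libraries labelled *pi4kß1ß2* leaf 1 and WT leaf 2 therefore went against their labels for this gene, and the counts over leaf libraries below are given with and without them. Sums over 6 photosynthesis genes, markers of leaf tissue, were 98.6 to 213 CPM in *pi4kß1ß2* roots, 174 to 411 CPM in WT roots, 50178 to 54612 CPM in *pi4kß1ß2* leaves and 45008 to 50104 CPM in WT leaves.

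The family holds close copies, so the sequences decide which members the reads could separate. When each transcript was divided into all its 75-base words, 52 members shared no word with another gene, and 8 shared some (TAIR10.1). AT1G05240 and AT1G05250 are inverted neighbours whose coding sequences are 100% identical. Their first 75 coding bases, at chr1:1521202-1521276 on the forward strand and chr1:1527095-1527169 on the reverse strand, show a stretch that no single read of that length could place.
AT1G05240: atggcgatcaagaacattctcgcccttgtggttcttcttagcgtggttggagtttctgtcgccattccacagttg
AT1G05250: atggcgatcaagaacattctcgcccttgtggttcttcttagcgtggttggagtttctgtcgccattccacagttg
For AT1G05250, 100% of the 75-base words occur elsewhere, and for AT1G05240 61.0%. The authors removed reads with multiple hits, and neither gene had more than 2 counts in any library, so their levels could not be measured. Among the other 58 members the highest share of such words was 5.53%, in AT2G18140.

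The other 6 that share words form the pairs AT2G18140 and AT2G18150, *PRXCA* and *PRXCB*, and *Prx37* and AT4G08780, so a few of their reads could not be placed. The first 75 coding bases of the adjacent genes AT2G38380 (chr2:16076443-16076517) and AT2G38390 (chr2:16079726-16079800), both on the forward strand, differ at 6 bases, shown in capitals, and their coding sequences are 90.6% identical.
AT2G38380: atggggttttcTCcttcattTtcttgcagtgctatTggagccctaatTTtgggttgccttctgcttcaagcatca
AT2G38390: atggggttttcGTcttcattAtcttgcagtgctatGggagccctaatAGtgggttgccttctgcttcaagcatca
The last 75 coding bases of *PRXCA* (AT3G49110, chr3:18202817-18202891) and *PRXCB* (AT3G49120, chr3:18209967-18210041), also on the forward strand, differ at 5 bases, in capitals, with 90.7% identity over the coding sequence. Both proteins are known from the apoplastic oxidative burst in defence.
PRXCA: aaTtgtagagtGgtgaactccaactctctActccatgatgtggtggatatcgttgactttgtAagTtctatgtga
PRXCB: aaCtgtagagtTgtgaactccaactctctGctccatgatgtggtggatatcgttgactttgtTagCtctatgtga
These pairs are shown because their members behaved differently, as described below.

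In roots, the family split into members that rose and members that fell. Of 55 members that passed the filter of at least 1 CPM in at least 3 of 6 libraries, 14 rose and 19 fell in *pi4kß1ß2* roots relative to WT roots by the quasi-likelihood test of edgeR (adjusted p under 0.05), and 22 did not pass. Over all 19694 genes tested 11.3% were called higher and 15.2% lower, 26.6% together, against 60% of the tested members. The median log2 difference was -0.09 over the tested members and 0.01 over all genes tested. The 3 libraries of each genotype did not overlap for 39 of the 55 members, and for 44.7% of all genes tested. A fit of all 12 libraries with 1 common spread called 8 members higher and 8 lower, where 3.33% of all genes were higher and 8.44% lower. Its spread was estimated over the leaf libraries as well, including those that went against their labels, and it was not repeated without them. The 6 members that rose but did not pass in that fit were AT1G49570, *PRX25*, *Prx37*, AT4G08780, AT5G06730 and AT1G34510. The 11 that fell but did not pass in it were AT1G68850, AT2G35380, AT2G39040, AT3G32980, AT4G30170, AT4G37530, AT5G14130, AT5G64100, *PER64*, *PRX72* and *RCI3*. Among the members that rose, *PRX52*, AT5G19880, AT1G14550 and *PRXCA* reached the minimum of 1 CPM in all 3 *pi4kß1ß2* libraries but not in all 3 WT libraries. They passed the filter through the genotype in which they are high, so the counts over tested members lean towards a rise, and of the 51 members that reached the minimum in every library 10 were higher and 19 lower. Since each library holds RNA of a whole organ, a smaller number of cells of a type and less RNA per cell cannot be told apart.

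**Figure D1:**
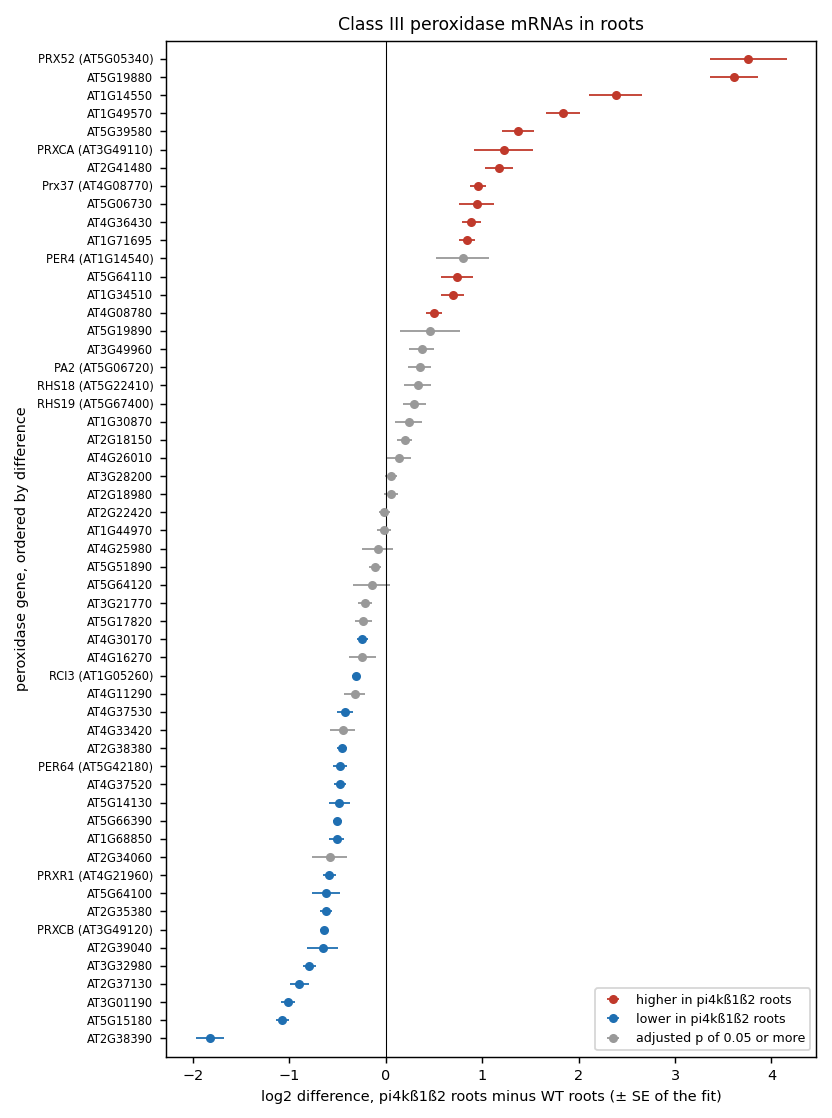
Log2 difference between *pi4kß1ß2* roots and WT roots (x axis, with the standard error of the fit) for the 55 tested peroxidase genes, ordered down the y axis. The 14 red points passed the test as higher and reach 3.76, the 19 blue points passed as lower and reach -1.83, and the 22 grey points did not pass.

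The strongest rise was that of *PRX52* (AT5G05340, chromosome 5, 1578869 to 1580875, reverse strand), known to be needed for normal lignin in the fibres of the stem. It had 19.3, 14.9 and 13.9 CPM in *pi4kß1ß2* roots, against 2.06, 0.719 and 0.808 CPM in WT roots. The lowest *pi4kß1ß2* library stood far above the highest WT library. The log2 difference was 3.76 (SE 0.40, adjusted p 0.00211), a 13.6-fold higher level. Without WT root 1, the highest of the WT libraries, the log2 difference was 4.38, a 20.9-fold higher level. The difference passed in all 14 alternative settings tried, with adjusted p from 2.19e-14 to 0.0109. In leaves the gene had 1.69, 2.89 and 1.59 CPM in libraries labelled *pi4kß1ß2*, against 0.493, 1.99 and 0.578 CPM in those labelled WT, and the groups overlapped (adjusted p 0.316). Without *pi4kß1ß2* leaf 1 and WT leaf 2, which went against their labels, the groups did not overlap, and the gene did not reach the filter and was left untested.

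AT5G19880 and AT1G14550, which belong to the list of members with known roles in defence and wounding, followed. AT5G19880 had 5.59, 6.17 and 5.37 CPM in *pi4kß1ß2* roots, against 0.704, 0.278 and 0.428 CPM in WT roots (log2 difference 3.61, SE 0.25, adjusted p 8.92e-05). AT1G14550 had 4.38, 4.76 and 2.90 CPM in *pi4kß1ß2* roots, against 1.02, 0.557 and 0.737 CPM in WT roots (log2 difference 2.38, SE 0.27, adjusted p 0.000649). In both, every *pi4kß1ß2* library lay above every WT library. As both passed the filter through the *pi4kß1ß2* libraries, they were left untested without any 1 of those libraries, and with no filter their adjusted p was 4.57e-06 for AT5G19880 and 0.000133 for AT1G14550. Their tandem neighbours moved less: AT5G19890, 58.9% identical in coding sequence to AT5G19880, had a log2 difference of 0.46 (adjusted p 0.35), and *PER4* (AT1G14540), 73.2% identical to AT1G14550, had one of 0.80 (adjusted p 0.087).

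The defence and wounding list held 11 members, all tested. In *pi4kß1ß2* roots 6 were higher and 2 lower, where 11.3% of all genes tested were higher and 15.2% lower. The median log2 difference of the list was 0.80. Without its 3 members that passed the filter through the *pi4kß1ß2* libraries, 3 of 8 were higher and 2 lower, with a median of 0.43. AT5G39580, also known from root hair growth, had 83.1, 94.3 and 63.5 CPM in *pi4kß1ß2* roots, against 35.0, 29.1 and 28.9 CPM in WT roots (log2 difference 1.37, SE 0.17, adjusted p 0.00305). *Prx37* (AT4G08770) had 132, 106 and 112 CPM in *pi4kß1ß2* roots, against 57.9, 61.5 and 61.0 CPM in WT roots (log2 difference 0.96, SE 0.08, adjusted p 0.000224). For both genes the *pi4kß1ß2* libraries were well apart from the WT libraries. AT4G08780, the inverted neighbour of *Prx37* with 93.8% coding identity, rose less, with 54.3, 55.4 and 47.0 CPM in *pi4kß1ß2* roots, against 37.2, 34.0 and 39.7 CPM in WT roots (log2 difference 0.50). The 2 members of the list that fell were *PRXCB* and AT2G37130.

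*PRXCA* was barely expressed in roots, with 2.19, 2.56 and 2.22 CPM in *pi4kß1ß2* roots, against 0.496, 1.37 and 1.09 CPM in WT roots. The groups did not overlap and the log2 difference was 1.22 (SE 0.31, adjusted p 0.0230), but the call was lost without any 1 of the 3 *pi4kß1ß2* root libraries or without WT root 3 (adjusted p 0.0584 to 0.0744). Its copy *PRXCB*, the fourth most abundant member in roots, went the other way. It had 473, 457 and 466 CPM in *pi4kß1ß2* roots, against 728, 701 and 747 CPM in WT roots (log2 difference -0.64, SE 0.04, adjusted p 5.78e-05). The 3 libraries of each genotype were close together for *PRXCB*, and the call passed in all 14 alternatives.

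Further members rose outside the defence and wounding list. AT1G49570 had 40.4, 41.7 and 30.4 CPM in *pi4kß1ß2* roots, against 8.89, 9.86 and 12.6 CPM in WT roots (log2 difference 1.84, SE 0.18, adjusted p 0.00112). *PRX25* (AT2G41480), which contributes to stem lignin, had 40.2, 49.9 and 42.2 CPM in *pi4kß1ß2* roots, against 22.6, 16.1 and 19.9 CPM in WT roots (log2 difference 1.18, SE 0.14, adjusted p 0.00229). AT4G36430 had 130, 112 and 114 CPM in *pi4kß1ß2* roots, against 59.0, 60.6 and 73.2 CPM in WT roots (log2 difference 0.89, SE 0.10, adjusted p 0.000879). None of these 3 genes showed an overlap between genotypes. AT1G71695 (0.84), AT5G06730 (0.94), AT5G64110 (0.74) and AT1G34510 (0.69) complete the 14. Of the 9 members on the list for lignified tissue, 3 were higher (*PRX52*, *PRX25* and AT4G36430), 1 lower (*PRX72*, AT5G66390) and 5 did not pass, with a median log2 difference of -0.02 (-0.06 without *PRX52*). Over all genes tested in roots 11.3% were higher and 15.2% lower.

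The 250 bases before the annotated start are shown for the 5 members with the largest rise. Capitals mark TTGAC on either strand, the core letters of the W-box bound by WRKY factors. The windows are chr5:1580876-1581125 (reverse strand) for *PRX52*, chr5:6722478-6722727 (reverse strand) for AT5G19880, chr1:4978672-4978921 (forward strand) for AT1G14550, chr1:18346708-18346957 (forward strand) for AT1G49570 and chr5:15849142-15849391 (reverse strand) for AT5G39580, all in TAIR10.1.
PRX52: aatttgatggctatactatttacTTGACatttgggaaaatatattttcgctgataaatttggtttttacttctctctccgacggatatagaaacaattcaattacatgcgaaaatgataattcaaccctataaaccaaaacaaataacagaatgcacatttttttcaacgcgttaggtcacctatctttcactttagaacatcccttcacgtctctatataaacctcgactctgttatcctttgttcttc
AT5G19880: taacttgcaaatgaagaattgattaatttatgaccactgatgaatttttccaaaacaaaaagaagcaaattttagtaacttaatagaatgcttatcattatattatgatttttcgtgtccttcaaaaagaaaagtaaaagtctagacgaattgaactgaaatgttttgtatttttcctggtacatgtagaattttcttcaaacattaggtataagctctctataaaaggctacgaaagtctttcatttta
AT1G14550: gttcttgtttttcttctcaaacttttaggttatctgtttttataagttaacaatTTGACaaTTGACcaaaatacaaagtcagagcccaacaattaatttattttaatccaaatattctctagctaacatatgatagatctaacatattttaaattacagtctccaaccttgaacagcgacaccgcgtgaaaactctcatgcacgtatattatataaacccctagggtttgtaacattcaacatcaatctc
AT1G49570: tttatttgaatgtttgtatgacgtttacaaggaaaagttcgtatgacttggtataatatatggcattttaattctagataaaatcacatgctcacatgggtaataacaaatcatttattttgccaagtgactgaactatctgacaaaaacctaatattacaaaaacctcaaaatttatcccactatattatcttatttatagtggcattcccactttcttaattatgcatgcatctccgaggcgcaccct
AT5G39580: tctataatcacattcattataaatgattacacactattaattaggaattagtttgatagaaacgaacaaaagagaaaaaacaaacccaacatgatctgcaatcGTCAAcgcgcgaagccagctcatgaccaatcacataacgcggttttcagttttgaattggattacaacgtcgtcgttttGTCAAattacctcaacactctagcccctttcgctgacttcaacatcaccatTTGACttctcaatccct
*PRX52* holds TTGAC at 1 place, AT1G14550 at 2 and AT5G39580 at 3, and the windows of AT5G19880 and AT1G49570 do not hold these letters. TTGAC occurred in 7 of the 14 windows of members that rose, 8 of the 19 that fell and 11 of the other 27, and in 44.9% of the windows of 27443 protein-coding genes. The G-box letters CACGTG were in 0 of 60 member windows and in 6.49% of all windows. The root hair element, searched by its published consensus on both strands, was in 3 member windows, those of AT2G35380, AT3G01190 and *RHS18*, and in 0.754% of all windows.

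The strongest fall was that of AT2G38390 (chromosome 2, 16079679 to 16081671, forward strand), whose role is not established. It had 83.9, 115 and 85.4 CPM in *pi4kß1ß2* roots, against 352, 303 and 354 CPM in WT roots. Even the highest *pi4kß1ß2* library was below the lowest WT library by a wide margin, with a log2 difference of -1.83 (SE 0.15, adjusted p 0.000617), and WT roots had 3.55 times the level of *pi4kß1ß2* roots. Its tandem copy AT2G38380, 897 bases upstream, fell far less, with 360, 380 and 369 CPM in *pi4kß1ß2* roots, against 518, 476 and 526 CPM in WT roots (log2 difference -0.45, SE 0.05, adjusted p 0.000485). The difference between the 2 genes' differences was not tested.

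The windows before the starts of the 2 copies, chr2:16076039-16076288 for AT2G38380 and chr2:16079429-16079678 for AT2G38390, both on the forward strand, are given with TTGAC in capitals.
AT2G38380: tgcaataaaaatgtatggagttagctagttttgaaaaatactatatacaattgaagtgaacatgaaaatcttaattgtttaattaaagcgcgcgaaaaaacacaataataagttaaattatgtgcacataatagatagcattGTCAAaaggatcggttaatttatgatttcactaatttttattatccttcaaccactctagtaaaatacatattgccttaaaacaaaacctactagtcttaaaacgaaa
AT2G38390: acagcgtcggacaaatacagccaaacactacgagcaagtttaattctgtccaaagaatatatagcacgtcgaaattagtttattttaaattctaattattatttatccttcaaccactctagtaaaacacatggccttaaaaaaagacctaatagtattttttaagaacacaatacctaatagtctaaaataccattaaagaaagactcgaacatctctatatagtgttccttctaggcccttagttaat
TTGAC is found once, on the opposite strand, before AT2G38380, and these letters are not in the AT2G38390 window.

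AT5G15180 and AT3G01190 fell next. AT5G15180 had 8.96, 9.42 and 9.78 CPM in *pi4kß1ß2* roots, against 18.6, 20.6 and 20.2 CPM in WT roots (log2 difference -1.08, SE 0.07, adjusted p 5.68e-05). AT3G01190 had 75.5, 79.3 and 91.5 CPM in *pi4kß1ß2* roots, against 160, 164 and 174 CPM in WT roots (log2 difference -1.01, SE 0.08, adjusted p 0.000111). WT roots had 2.11 and 2.02 times the level of *pi4kß1ß2* roots for these 2 genes, with no overlap.

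Most of the abundant root peroxidases were among the members that fell. Set per kilobase of exon, so that genes can be compared, *PRXR1* (AT4G21960) had the highest level in both genotypes, with 574 ± 24.4 CPM per kb in *pi4kß1ß2* roots and 862 ± 74.3 CPM per kb in WT roots (SD, n = 3). AT3G32980, AT4G30170 and *PRXCB* followed in both genotypes. The median level over the 19 members that fell was 57.0 CPM per kb in *pi4kß1ß2* roots and 102 CPM per kb in WT roots, while over the 14 members that rose it was 19.5 CPM per kb in *pi4kß1ß2* roots and 9.04 CPM per kb in WT roots. As a share of all gene counts, the 60 members took 0.711% to 0.720% in *pi4kß1ß2* roots and 0.897% to 0.988% in WT roots. These shares describe groups of genes formed from the same libraries and were not tested.

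In single libraries, *PRXR1* had 1289, 1293 and 1199 CPM in *pi4kß1ß2* roots, against 1727, 1886 and 2055 CPM in WT roots (log2 difference -0.58, SE 0.07, adjusted p 0.000687). AT3G32980 had 771, 912 and 846 CPM in *pi4kß1ß2* roots, against 1515, 1366 and 1503 CPM in WT roots (log2 difference -0.79, SE 0.07, adjusted p 0.000203). AT2G37130, a member of the defence and wounding list, had 361, 321 and 332 CPM in *pi4kß1ß2* roots, against 536, 670 and 680 CPM in WT roots (log2 difference -0.90, SE 0.10, adjusted p 0.00100). For these abundant members all *pi4kß1ß2* libraries lay below all WT libraries. AT2G39040 (-0.66) and AT5G64100 (-0.62) passed less firmly, and each lost its call without any 1 of the *pi4kß1ß2* root libraries or without WT root 2. The abundant AT4G30170 fell little. It lost its call without *pi4kß1ß2* root 2 (log2 difference -0.20, adjusted p 0.0540) or without WT root 3 (-0.20, adjusted p 0.0557).

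**Figure D2:**
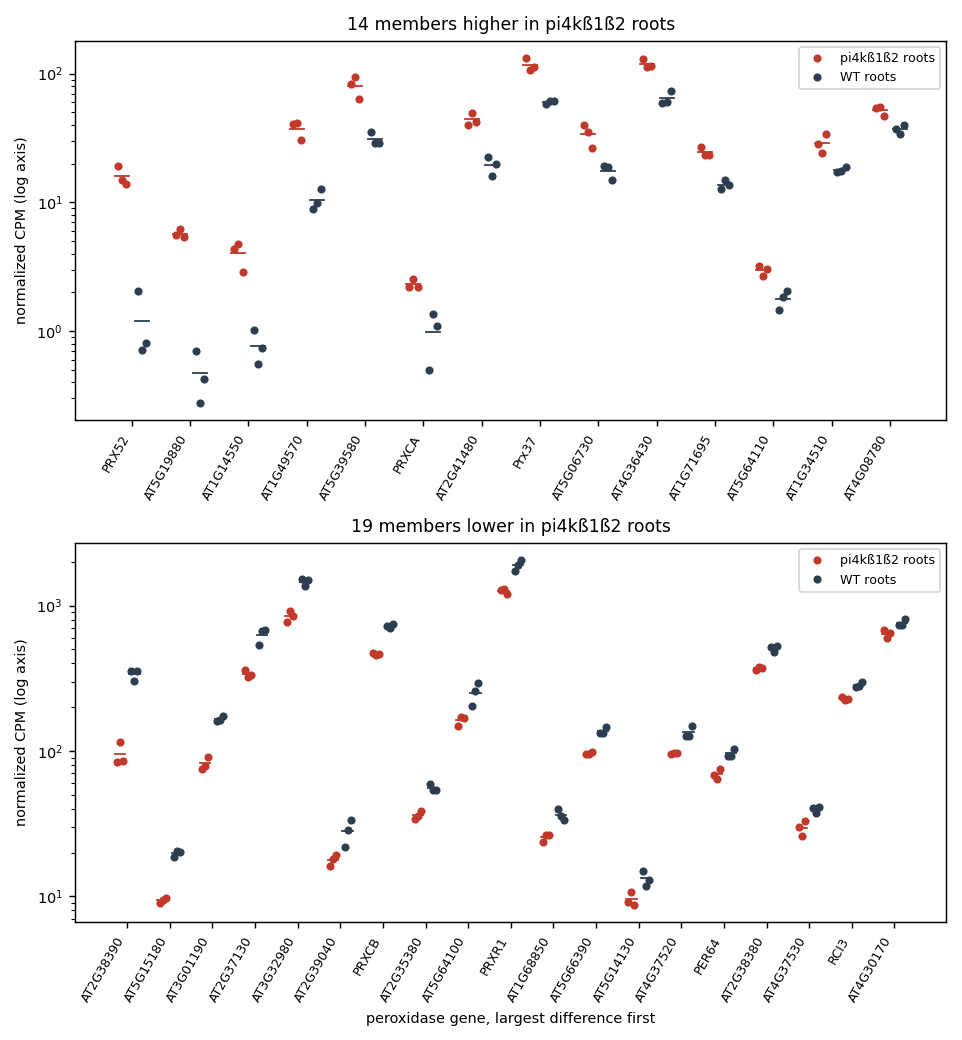
Normalized CPM (log axis) of the members that passed the test in roots, 1 point per library and a line at the mean of 3 libraries, *pi4kß1ß2* in red to the left of WT in dark blue. In the upper panel of 14 members the highest WT point is 73.2 CPM, for AT4G36430, while the lower panel of 19 members reaches 2055 CPM for *PRXR1* in WT root 3, and in neither panel do the genotypes overlap for any member.

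The 5 members known to lignify the Casparian strip included 3 that fell, where 15.2% of all genes tested in roots were lower. *PER64* (AT5G42180), which is anchored at the strip by the CASP scaffold proteins, had 67.8, 64.1 and 75.5 CPM in *pi4kß1ß2* roots, against 92.9, 93.0 and 103 CPM in WT roots (log2 difference -0.48, SE 0.07, adjusted p 0.00205). *PRX72*, which also lignifies xylem, had 95.8, 95.1 and 99.0 CPM in *pi4kß1ß2* roots, against 133, 133 and 145 CPM in WT roots (log2 difference -0.50, SE 0.05, adjusted p 0.000308). *RCI3* (AT1G05260), first known as a gene induced by cold, had 237, 224 and 228 CPM in *pi4kß1ß2* roots, against 277, 278 and 296 CPM in WT roots (log2 difference -0.31, SE 0.04, adjusted p 0.00172). For these 3 genes the genotypes were apart in every library. AT4G11290 had a log2 difference of -0.32 (adjusted p 0.071) and AT1G44970 one of -0.02 (adjusted p 0.88).

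Most markers of the endodermis and all markers of the xylem were lower in *pi4kß1ß2* roots, where 15.2% of all genes tested were lower. Of 7 endodermis markers, among them the *CASP* genes and *ESB1*, 6 were lower in *pi4kß1ß2* roots, and AT5G57620 did not pass. The summed level of the 7 was 286 to 298 CPM in *pi4kß1ß2* roots and 399 to 439 CPM in WT roots. All 5 xylem markers, the secondary wall cellulose synthases and *XCP1* and *XCP2*, were lower, with sums of 198 to 204 CPM in *pi4kß1ß2* roots and 322 to 328 CPM in WT roots. No marker of either list was at 0. The 9 members on the list for lignified tissue had no shared direction, with 3 higher, 1 lower and a median log2 difference of -0.02. Whether the endodermis or the xylem has a part in the fall of the peroxidases was not tested.

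None of the tested members on the root hair list passed as lower, also at an unadjusted p under 0.05. The list does not hold every member with a part in root hairs, and AT5G39580 is among those left out. Of 8 on this list 6 were tested, and the log2 differences of the 6 ran between 0.14 and 0.69, with a median of 0.31. AT1G34510 passed, with 28.4, 24.1 and 33.8 CPM in *pi4kß1ß2* roots, against 17.3, 17.4 and 18.7 CPM in WT roots (adjusted p 0.00593), and the other 5 did not. *RHS19*, a root hair gene, had 93.1, 86.3 and 117 CPM in *pi4kß1ß2* roots, against 74.6, 80.5 and 86.2 CPM in WT roots (log2 difference 0.29, adjusted p 0.13), which barely kept the genotypes apart. With edgeR, 0 of 5 root hair markers passed and 1 had an unadjusted p under 0.05, with sums of 163 to 219 CPM in *pi4kß1ß2* roots and 148 to 184 CPM in WT roots.

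Genes that share substrates with the peroxidases were followed as lists, beside 11.3% higher and 15.2% lower over all genes tested in roots. Laccases, the other wall oxidases that polymerize monolignols, were lower for 12 and higher for 1 of 16 tested, with a median log2 difference of -0.70. *LAC2* (AT2G29130) had 2.40, 2.56 and 2.81 CPM in *pi4kß1ß2* roots, against 12.9, 11.3 and 12.0 CPM in WT roots (log2 difference -2.22). Of the 18 enzymes that make monolignols, 6 were lower and 2 higher, with a median of -0.20, and *PAL4* (AT3G10340), a phenylalanine ammonia-lyase, fell furthest (-1.18).

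Extensins, wall proteins that peroxidases cross-link, went mostly the other way. Of 9, 6 were higher and 1 lower, with a median log2 difference of 0.82, led by AT5G06630 (1.25), AT4G13390 (1.14) and AT4G08400 (0.99), while *EXT3* (AT1G21310) was lower (-0.47). Among 9 tested intracellular ascorbate peroxidases and catalases, 1 was higher and 2 lower, of which the catalase *CAT3* (AT1G20620) had the larger log2 difference (-1.50). Of 7 superoxide dismutases, which produce hydrogen peroxide, *FSD1* (AT4G25100) fell (-0.38) and the other 6 did not pass. Among 6 transcription factors known to regulate peroxidases, *RSL2* (AT4G33880) fell (-0.47) and the other 5 did not pass, *UPB1* included. The lower shares of the dismutases and of these factors, 14.3% and 16.7%, were near the 15.2% over all genes tested. Of the 13 other family genes 5 were tested, and AT5G24070 (1.35) and AT2G43480 (0.24) were higher.

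In leaves compared by label, few members differed. Of 52 tested, 0 were higher and 2 lower in leaves labelled *pi4kß1ß2*, where 3.72% of all 19470 genes tested were higher and 6.76% lower. With edgeR, 0 members were higher also at an unadjusted p under 0.05, and DESeq2 called 0 higher and 4 lower, against 7.50% and 9.20% of all genes. The median log2 difference was -0.10 over the tested members and 0.00 over all genes tested. The libraries of the labels did not overlap for 5 members, and for 37.6% of all genes.

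AT5G64110 had 26.1, 16.6 and 21.9 CPM in leaves labelled *pi4kß1ß2*, against 51.4, 38.6 and 41.6 CPM in leaves labelled WT (log2 difference -1.03, SE 0.19, adjusted p 0.0284). *PRXR1* had 1078, 962 and 1038 CPM in leaves labelled *pi4kß1ß2*, against 1415, 1256 and 1378 CPM in leaves labelled WT (log2 difference -0.40, SE 0.08, adjusted p 0.0366). Both genes kept the labels apart in every library. With the replicate number as a block, AT1G71695 and AT2G37130 passed as well (log2 differences -0.51 and -0.48), 4 lower in all, where 5.31% of all genes were lower and 8.64% were called in either direction. Both calls of the fit without the block were lost without *pi4kß1ß2* leaf 2, *pi4kß1ß2* leaf 3, WT leaf 1 or WT leaf 3 (adjusted p 0.0739 to 0.102 for AT5G64110), and that of *PRXR1* was also lost without *pi4kß1ß2* leaf 1 (adjusted p 0.0518). Calls over all genes fell in these fits too, from 724 higher and 1317 lower with every leaf library. They numbered 4 and 8 without *pi4kß1ß2* leaf 2, 291 and 455 without *pi4kß1ß2* leaf 3, and 489 and 842 without *pi4kß1ß2* leaf 1. Without WT leaf 1 they numbered 18 and 37, and without WT leaf 3 they numbered 20 and 48. Without WT leaf 2 alone, 3 members were higher and 3 lower, against 4.73% and 6.82% of all genes.

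Without the 2 leaf libraries that went against their labels, and with 2 libraries left per label, 19 of 51 tested members were higher and 5 lower in *pi4kß1ß2* leaves, where 13.0% of all genes tested were higher and 14.0% lower. *PRX25* had the largest rise in this fit (log2 difference 2.11, SE 0.19, adjusted p 0.00151), with 6.43 and 5.20 CPM in *pi4kß1ß2* leaves 2 and 3, against 1.38 and 1.33 CPM in WT leaves 1 and 3. In the 2 libraries left out it had 2.11 CPM in *pi4kß1ß2* leaf 1 and 7.24 CPM in WT leaf 2. AT5G06730 (1.56), AT4G08780 (1.11), AT1G49570 (1.08), *RCI3* (0.88), *PRX72* (0.85), *RHS18* (0.81) and *PER64* (0.77) were also higher in that fit, and AT5G64110 (-1.27), AT2G34060 (-0.89), AT1G71695 (-0.74), *PRXR1* (-0.48) and *PRXCB* (-0.35) were lower.

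WT leaf 2 held the highest level of the 6 leaf libraries for 39 of the 52 tested members. Among the 37 of them that were higher in WT roots than in WT leaves, a comparison that uses the same WT leaf libraries, it was highest for 34. *PRX72*, for example, had 9.49, 15.0 and 16.1 CPM in *pi4kß1ß2* leaves, against 8.23, 20.7 and 9.11 CPM in WT leaves, and *RCI3* had 20.9, 38.0 and 35.3 CPM in *pi4kß1ß2* leaves, against 17.3, 52.7 and 22.7 CPM in WT leaves. In both genes WT leaf 2 was highest, *pi4kß1ß2* leaves 2 and 3 came next, and the other 3 libraries were low. WT leaf 2 and *pi4kß1ß2* leaves 2 and 3 were also the lowest leaf libraries for *PI4Kß2*, with 165, 205 and 217 raw counts. The others had 323 in *pi4kß1ß2* leaf 1, 401 in WT leaf 1 and 421 in WT leaf 3. The summed level of 5 root markers followed the order of *PRX72* and *RCI3*. It was 16.6, 31.6 and 28.7 CPM in *pi4kß1ß2* leaves, against 17.2, 44.2 and 23.9 CPM in WT leaves, and no marker was at 0. The largest part of it was AT5G57090, with 294, 814 and 689 raw counts in *pi4kß1ß2* leaves, against 344, 1136 and 495 in WT leaves. AT5G47450 had 116, 107 and 94 counts, against 119, 145 and 121, and AT1G08090 had 31, 31 and 46, against 16, 25 and 31. In AT5G49270 and AT1G12560 WT leaf 2 was highest, but WT leaf 3 stood above *pi4kß1ß2* leaves 2 and 3. Whether root tissue or the labelling of the leaf libraries has a part in these leaf values was not tested.

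**Figure D3:**
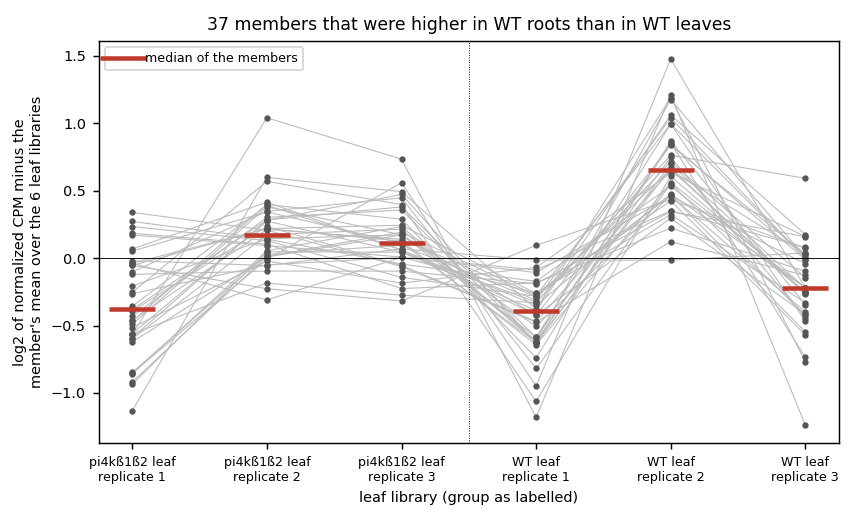
Log2 of the normalized CPM of each of 37 root-high members, minus that member's mean over the 6 leaf libraries (y axis), in each leaf library (x axis). The red bars are medians over the members, -0.38, 0.17 and 0.11 in *pi4kß1ß2* leaves 1, 2 and 3, and -0.39, 0.65 and -0.22 in WT leaves 1, 2 and 3.

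Between organs, the family was mostly a root family. In WT, 38 of 52 tested members were higher in roots than in leaves and 6 lower, against 36.3% and 37.4% of all 20291 genes tested, 73.7% together. In *pi4kß1ß2*, 43 of 55 tested members were higher in roots and 8 lower, against 39.3% and 39.3% of 20413 genes, 78.6% together. The median log2 difference of the tested members was 1.97 in WT and 2.04 in *pi4kß1ß2*, and that of all genes tested 0.00 in each. Scaling by library size alone moved the median of all genes to 0.48 in WT and 0.57 in *pi4kß1ß2* and gave 72.5% and 72.8% of calls as root-high, against 49.3% in WT and 50.0% in *pi4kß1ß2* with the scaling used here, so the direction of small organ differences rests on the scaling. The libraries of the organs did not overlap for 47 members in WT and 51 in *pi4kß1ß2*, against 79.2% and 83.2% of all genes. Without WT leaf 2, 43 members were higher and 7 lower in WT roots, against 38.5% and 37.6% of all genes. Without *pi4kß1ß2* leaf 1, 44 were higher and 8 lower in *pi4kß1ß2* roots, against 39.9% and 38.8% of all genes.

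The members with the largest root excess in WT were AT2G38390, AT2G39040, AT3G01190, *PRX72* and AT4G16270. AT2G38390 had 294, 255 and 295 CPM in WT roots, against 9.21, 18.0 and 8.95 CPM in WT leaves (log2 difference 4.54, SE 0.32, adjusted p 5.92e-05). AT2G39040 had 18.3, 24.2 and 27.9 CPM in WT roots, against 1.38, 2.93 and 2.62 CPM in WT leaves (log2 difference 3.34). Both organs were far apart in these genes, and WT leaf 2 was the highest leaf library. Without it the log2 difference was 4.92 for AT2G38390, 3.51 for AT2G39040 and 3.57 for AT4G16270 (2.88 with it). In *pi4kß1ß2*, AT2G39040 (3.40), AT1G49570 (3.19), AT1G34510 (3.16), AT1G30870 (2.90) and AT3G49960 (2.84) had the largest excess.

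A few members were leaf transcripts. *PRXCA* had 0.413, 1.15 and 0.911 CPM in WT roots, against 63.3, 53.9 and 65.4 CPM in WT leaves (log2 difference -6.19, SE 0.31, adjusted p 1.39e-05), and in *pi4kß1ß2* the log2 difference was -4.83 (-6.29 without WT leaf 2, and -4.77 without *pi4kß1ß2* leaf 1). AT5G64110 had 1.22, 1.54 and 1.72 CPM in WT roots, against 61.4, 45.8 and 49.6 CPM in WT leaves (-5.12, and -3.38 in *pi4kß1ß2*). AT1G71695 had 10.6, 12.5 and 11.4 CPM in WT roots, against 168, 129 and 170 CPM in WT leaves (-3.76, and -2.43 in *pi4kß1ß2*). In each gene every leaf library exceeded every root library by several fold. *PRX71* (AT5G64120), known from responses to wall damage, was also leaf-high, with log2 differences of -1.98 in WT and -2.54 in *pi4kß1ß2*, as was AT2G34060 (-0.89 and -1.07).

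The genotype differences of these leaf-high members in roots, measured against the same WT root libraries, were 1.22 for *PRXCA*, 0.74 for AT5G64110, 0.84 for AT1G71695, -0.15 for *PRX71* and -0.58 for AT2G34060 on the log2 scale, and the first 3 passed as higher. The 6 leaf markers gave 0 calls in roots with edgeR, with 1 lower at an unadjusted p under 0.05, and the median of their summed level was 126 CPM in *pi4kß1ß2* roots and 228 CPM in WT roots. Whether leaf tissue has a part in these root values was not tested. *PRX71* had 51.2, 84.6 and 68.4 CPM in *pi4kß1ß2* roots, against 72.0, 72.7 and 81.4 CPM in WT roots, and the genotypes overlapped.

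Sequence copies differed in organ as well as in genotype. Per kilobase, *PRXCA* averaged 1.24 ± 0.11 in *pi4kß1ß2* roots, 0.526 ± 0.240 in WT roots, 35.1 ± 6.12 in *pi4kß1ß2* leaves and 38.8 ± 3.96 in WT leaves, while *PRXCB* averaged 254 ± 4.59, 398 ± 10.9, 180 ± 16.9 and 235 ± 32.9 CPM per kb in the same groups (SD, n = 3 each). In the tandem group on chromosome 5, AT5G64100 was root-high and fell in *pi4kß1ß2* roots, AT5G64110 next to it was leaf-high and rose in *pi4kß1ß2* roots, and *PRX71* was leaf-high with no call in roots. The coding identity of AT5G64110 was 69.6% with AT5G64100 and 63.7% with *PRX71*. The tandem pair AT4G37520 and AT4G37530, 92.4% identical, fell by about the same size in *pi4kß1ß2* roots (log2 differences -0.48 and -0.43).

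**Figure D4:**
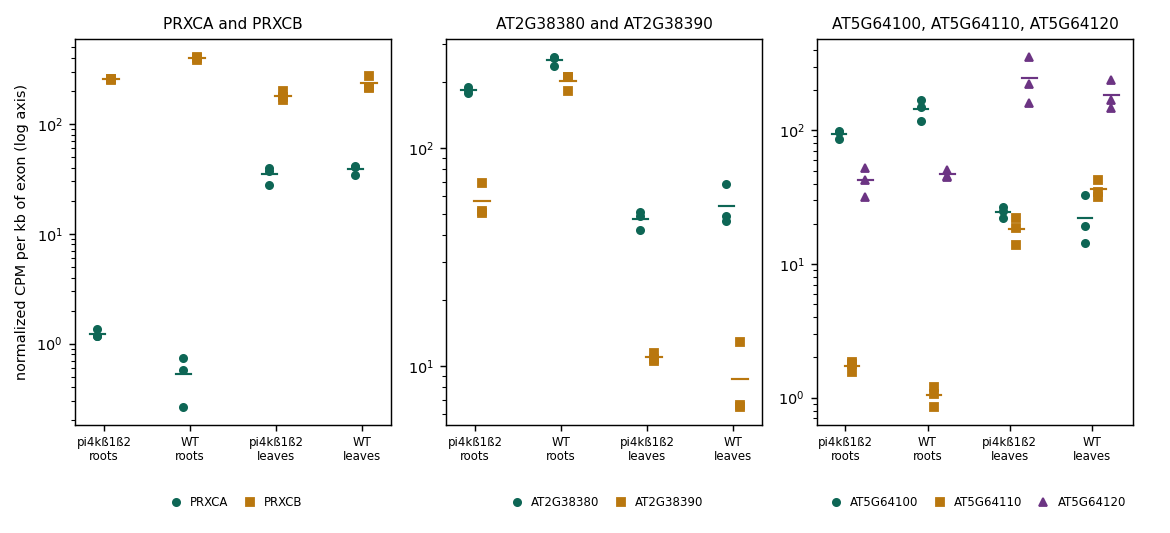
Normalized CPM per kb of exon (log axis) of related members in the 4 groups, 1 point per library and a line at the mean of 3. *PRXCA* lies near 1 CPM per kb in roots and above 25 in leaves while *PRXCB* stays above 100 in each group, AT2G38390 falls below AT2G38380 in *pi4kß1ß2* roots by more than in WT roots, and AT5G64110 is the lowest of its tandem group in roots.

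The genotype difference in roots differed from that in leaves for 11 of 55 members (interaction term, adjusted p under 0.05), and for 22.4% of 20765 genes tested. It was above that in leaves for *PRX52*, whose interaction was 2.72 on the log2 scale (SE 0.76, adjusted p 0.0288), and for AT5G64110 (1.74), *PRXCA* (1.36) and AT1G71695 (1.33). AT5G64110 was higher in *pi4kß1ß2* roots (0.74) and lower in leaves labelled *pi4kß1ß2* (-1.03). The difference in roots was below that in leaves for 7 members, led by AT2G38390 (-2.16, SE 0.34, adjusted p 0.00230), whose leaf difference was 0.31. Without the 2 leaf libraries that went against their labels the interaction passed for 28 members, 3 of them above and 25 below, against 32.2% of all genes tested, and that of *PRX52* was 1.68 with an adjusted p of 0.110. With the replicate block, 4 members passed above and 5 below, against 9.94% and 11.8% of all genes, and AT2G35380 (adjusted p 0.0506) and AT4G37520 (adjusted p 0.0620) lost their calls.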

How the data were processed

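Total RNA of *pi4kß1ß2* and WT roots and leaves was selected for polyA and sequenced from stranded libraries. Per their methods, the authors used Trimmomatic for trimming, sortMeRNA against ribosomal reads and STAR for alignment to TAIR10, and deposited raw counts per gene for reads that hit 1 gene. The deposited counts on the strand of the libraries (reverse) were used. Counting error is small at this depth for all but the rarest members, and a fold change measures relative abundance. Their methods describe the root libraries only.

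Counts were scaled by TMM and tested with edgeR 4.0.16 (quasi-likelihood, robust), separately for each pair of groups, over genes that reached 1 CPM in 3 or more of 6 libraries. Benjamini-Hochberg adjustment ran over all genes tested, with a threshold of 0.05. The interaction was fitted over all 12 libraries. Alternatives were DESeq2 1.42.0, the edgeR likelihood ratio test, other scalings, no filter and counts without strand. A replicate block, a common fit and leaving out libraries were alternatives too. Only the root comparison, with both edgeR tests and DESeq2, was tried on simulated counts. The block, the common fit, the interaction and the fits without libraries were not. Levels per kb used exon lengths of TAIR10.1. Same-numbered leaf libraries tended to deviate together, with correlations of 0.368, 0.660 and 0.149 for numbers 1, 2 and 3. Between different numbers the correlations were -0.578 to 0.148. Number 3 barely exceeded that range, so the pairing was not settled, and only the replicate block uses it. Replicates are separate samples in the labels. The p-values test a group difference against the variation between these samples, which the fits moderate over all genes.

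Values in every library are given for *PRX52* and for called or abundant members within limits set for each comparison, and counts for the rest. The rule for the members used gene identifiers and no measured value, but the members, lists and tests were chosen with earlier results of these data known.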

Additional observations from a re-analysis of the deposited data

Results flagged for a closer look

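The interaction test of edgeR passed for 11 of 55 tested members, and for 22.4% of all 20765 genes tested. The interaction is the log2 genotype difference in roots minus the log2 label difference in leaves. It was 2.72 for *PRX52* (AT5G05340, adjusted p 0.0288), 1.74 for AT5G64110 (adjusted p 0.00210), 1.36 for *PRXCA* (AT3G49110, adjusted p 0.0198) and 1.33 for AT1G71695 (adjusted p 0.00137). It was -0.54 for AT4G37520 (adjusted p 0.0469), -0.76 for AT4G37530 (adjusted p 0.0258), -0.81 for AT3G01190 (adjusted p 0.00681) and -0.86 for AT2G35380 (adjusted p 0.0484). It was -0.87 for AT1G68850 (adjusted p 0.0328), -0.87 for AT5G15180 (adjusted p 0.00659) and -2.16 for AT2G38390 (adjusted p 0.00230). With the replicate block AT2G35380 and AT4G37520 no longer passed (adjusted p 0.0506 and 0.0620). The leaf side of each value includes the 2 libraries that went against their labels, and without them 10 of the 11 members passed in the same direction, while *PRX52* did not (1.68, adjusted p 0.110).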

How the results depend on the processing

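In roots, 15 of the 33 called members passed in every alternative fit that tested them, and none changed direction. The fit of all 12 libraries, whose spread also drew on the leaf libraries, called 8 higher and 8 lower, against 3.33% and 8.44% of all genes. Leaving out 1 library gave 11 to 15 higher and 17 to 20 lower. Of 19516 to 19569 genes tested, those fits called 1415 to 1845 higher and 2333 to 2495 lower. With no root library left out, 2233 and 3000 of 19694 were called. In leaves, lower members numbered 1 with DESeq2's size factors in edgeR and 1 without a filter. In those fits 1073 of 19470 and 1008 of 27166 genes were lower. Lower members numbered 4 with DESeq2, the replicate block and the fit of all 12 libraries, against 9.20%, 5.31% and 13.7% of all genes. The fit of all 12 libraries called 0 members higher, against 11.9% of all genes. Without both libraries that went against their labels 5 were lower and 19 higher, against 14.0% and 13.0% of all genes. Leaving out 1 leaf library gave 0 to 3 higher and 0 to 3 lower. Over all genes those fits gave 4 to 909 higher and 8 to 1310 lower. Between organs, leaving out 1 library gave 35 to 43 higher and 4 to 7 lower in WT, and 42 to 44 higher and 6 to 9 lower in *pi4kß1ß2*. Over all genes the same fits gave 6258 to 7493 higher and 6425 to 7317 lower in WT. In *pi4kß1ß2* they gave 6964 to 7786 higher and 7004 to 7577 lower. Scaling by library size only gave 4 lower in *pi4kß1ß2*, where 4727 of 20413 genes were lower. This scaling turned the organ differences of AT3G28200 (0.21 in WT and 0.012 in *pi4kß1ß2*), *PRXR1* (AT4G21960, 0.33 in *pi4kß1ß2*) and AT4G25980 (0.051 in *pi4kß1ß2*). The interaction below that in leaves passed for 25 members without both leaf libraries, against 18.8% of all genes. The cause of these changes was not tested, beyond the fewer samples and other scaling of each fit.

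With the replicate block, 19 members were higher and 21 lower in roots, against 10.2% and 14.5% of all genes. Replicate numbers did not consistently pair the root libraries (correlations -0.034 to 0.601) or the organs (-0.030 to 0.414 in WT and -0.035 to 0.403 in *pi4kß1ß2*). Between organs the block gave 39 higher and 6 lower in WT (34.4% and 35.6% of all genes). In *pi4kß1ß2* it gave 44 higher and 7 lower (38.3% and 38.5%). For the interaction the block gave 4 above and 5 below, against 9.94% and 11.8% of all genes. Depth limits the members at or near 0 counts, which were not tested.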
